A study of Mus musculus with 10 samples.

Results

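ZBTB proteins are transcription factors that join an amino-terminal BTB domain, through which they pair and recruit corepressor complexes, to carboxy-terminal zinc fingers that bind DNA. Several of them steer lymphocyte fate. Zbtb7b (ThPOK) and Zbtb7a (LRF) hold T cells in the CD4 lineage, Zbtb16 (PLZF) directs innate-like T cells, and others bind methylated CpG or telomeric repeats. Chromatin accessibility at the Zbtb genes was compared between tamoxifen-treated and untreated naive T cells of mice with floxed Satb1, a chromatin organiser of T cells. Of the 61571 annotated ATAC-seq peaks, 125 carried a gene symbol that begins with Zbtb and a digit, and these peaks belonged to 37 of the 14287 symbols. ATAC-seq tags open chromatin with the transposase Tn5, and a peak is a stretch in which the reads accumulate.

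All 10 libraries came from CD3+CD4+CD25-CD44low/-CD62L+ T cells of spleen and lymph node, 60000 cells each, of the genotype Satb1fl/fl x CD4-CreERT2wt/+. The 5 KO libraries (Sample_2268_KO to Sample_2272_KO) are labelled tamoxifen, which activates this CD4-driven Cre, and the 5 WT libraries (Sample_2273_WT to Sample_2277_WT) are untreated. Both groups carried the floxed alleles and the Cre, no WT library had tamoxifen, and so deletion of Satb1 and exposure to the drug cannot be told apart. Separate mice are not named in the labels, so the p-values reflect only how far these libraries spread, which may be technical. Total counts in peaks ranged from 673398 to 2184717, and the ZBTB peaks took 0.276 to 0.288% of them in KO and 0.282 to 0.301% in WT. Sample_2268_KO and Sample_2270_KO, and likewise Sample_2273_WT and Sample_2276_WT, differed by less than the counting noise (chi-square per degree of freedom of 0.974 and 0.991, against 1.01 to 1.35 for the other pairs). They are counted as separate here, because the labels list them so, and the Zbtb10 values are also given with each pair merged and counted as 1 sample. All 7 T cell markers checked were open (summed level 919 to 959 CPM in KO and 876 to 957 CPM in WT, where CPM is the count rescaled to a common in-peak total). Of 7 B cell markers, 3 had annotated peaks, with a summed level of 35.6 to 41.6 CPM in KO and 36.7 to 46.8 CPM in WT. The myeloid and dendritic markers summed to 125 to 175 CPM in KO and 125 to 168 CPM in WT, 5 of 7 had peaks, and Itgax rose in KO from 36.6 to 51.9 CPM (edgeR adjusted p = 0.0139, which DESeq2 did not call). The NK and innate lymphoid markers summed to 188 to 233 CPM in KO and 188 to 201 CPM in WT, and the CD8 pair to 24.1 to 33.9 and 27.5 to 32.3 CPM. The part of other cell types in the results was not tested. Peaks annotated to Satb1 itself summed to 437 ± 13.2 CPM in the KO and 381 ± 20.3 CPM in the WT libraries (SD, n = 5 each). The groups did not overlap, as in 3.12% of all tested gene sums. The adjusted p was 0.0245 with edgeR, 0.0177 with limma-voom and 0.0903 with DESeq2. Accessibility over a whole gene does not measure the loss of floxed exons, so the Satb1 sum does not check the labels.

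The ZBTB peaks lay mostly at promoters. By the deposited annotation 69 of the 125 (55.2%) were promoter peaks, against 36.6% of all peaks, 26 lay in introns, 23 were distal intergenic, 3 exonic, and 2 each in 5' and 3' untranslated regions. Peaks over the annotated start site itself were found for 26 symbols. The number of peaks per symbol ran from 1, for 9 symbols, to 12 for Zbtb2. Counts were high enough to test in 85 peaks (68%), whose mean count per library was 9.5 to 252.7, and the 40 untested peaks had 2.1 to 10.0. Of the 37 symbols, 36 had a tested peak. The exception was Zbtb8b, with a single peak at 5.63 ± 1.89 CPM in KO against 4.59 ± 2.01 in WT. Zbtb8os matches by its symbol and is not a ZBTB protein. No annotated peak carried the symbols Zbtb20, Zbtb26, Zbtb46 or Zbtb7c, which RefSeq lists. The Zbtb6 peak also covers 272 bp of the sequence around the RefSeq start site of Zbtb26 and is read here under Zbtb6. The annotation gives each peak to the nearest start site, which says nothing of the gene it regulates. By RefSeq, 5 member peaks overlap a start-site sequence of another gene. They belong to Zbtb37 (Gas5), Zbtb49 (Lyar), Zbtb5 (1700055D18Rik), Zbtb6 (Zbtb26 and Rabgap1) and Zbtb7b (Gm15417). In 8 peaks the annotation placed the peak inside another gene that has a gene number. Of these, 6 Zbtb2 peaks lay in Akap12 and 1 in Rmnd1, and a Zbtb7b peak lay in Gm15417. The Zbtb8b peak lay 4487 bp before the Zbtb8b start site, in an exon of a transcript listed without a gene number.

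The median GC and CpG content before the start sites of these genes was above that of all RefSeq windows. In the 250 bases before the start site (RefSeq, GRCm38.p6), 46 windows of 33 member symbols had a median of 64.6% GC and 20 CpG, against 52.4% and 6 in all 32851 windows. The ETS core GGAA was found on either strand in 93.48% of the ZBTB windows and 93.45% of all windows. The RUNX letters TGTGGT were in 15.22% and 14.05%, the TCF letters CTTTGA in 13.04% and 13.83%, and the GATA letters AGATAA in 6.52% and 9.99%. The NFAT letters TGGAAA, which hold the ETS core, were in 6.52% and 18.58%, the AP-1 letters TGANTCA in 0.0% and 6.75%, and the ZBTB33 letters TCCTGCNA in 8.7% and 4.03%. These shares count letters in a window and not bound sites, and they were not tested. All windows together belong to 27025 symbols, while 14287 symbols had an annotated peak, so they include genes without one. The ZBTB windows were not set against those of other genes with peaks alone, in GC, CpG or letters. The 4 windows below, printed on the gene's strand, are start-site sequences that lie wholly or in part under a tested ZBTB peak and outside other protein-coding genes. Capitals mark any of the 7 motifs on either strand. As 4 of the 46 windows, they are examples and do not give the range of the family. Zbtb22 holds 6 ETS cores with 58.8% GC, Zbtb9 holds 4 with 69.2% GC, and Zbtb17 holds 2 with 57.2% GC. Zbtb5 holds none with 52.4% GC but 1 RUNX and 2 TCF matches. For Zbtb22, 162 of the 250 bases lie under a ZBTB peak. They lie on the plus strand at chr17:33915926-33916175 (Zbtb22), chr17:26972929-26973178 (Zbtb9) and chr4:141444423-141444672 (Zbtb17), and on the minus strand at chr4:45012413-45012662 (Zbtb5).
Zbtb22: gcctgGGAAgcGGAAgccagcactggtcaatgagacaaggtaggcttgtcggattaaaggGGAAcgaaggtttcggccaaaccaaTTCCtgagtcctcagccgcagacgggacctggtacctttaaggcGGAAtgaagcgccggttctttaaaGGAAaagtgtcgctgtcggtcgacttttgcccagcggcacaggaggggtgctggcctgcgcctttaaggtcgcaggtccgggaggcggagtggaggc
Zbtb9: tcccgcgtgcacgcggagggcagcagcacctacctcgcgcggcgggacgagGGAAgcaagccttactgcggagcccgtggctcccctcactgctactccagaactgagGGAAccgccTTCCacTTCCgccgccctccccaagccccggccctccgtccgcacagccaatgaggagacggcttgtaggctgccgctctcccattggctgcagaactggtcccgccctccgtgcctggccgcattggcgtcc
Zbtb17: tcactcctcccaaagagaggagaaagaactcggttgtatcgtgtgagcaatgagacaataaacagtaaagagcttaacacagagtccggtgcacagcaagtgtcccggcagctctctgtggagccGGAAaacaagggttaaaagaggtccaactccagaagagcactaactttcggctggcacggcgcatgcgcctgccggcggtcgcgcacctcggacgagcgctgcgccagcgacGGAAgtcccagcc
Zbtb5: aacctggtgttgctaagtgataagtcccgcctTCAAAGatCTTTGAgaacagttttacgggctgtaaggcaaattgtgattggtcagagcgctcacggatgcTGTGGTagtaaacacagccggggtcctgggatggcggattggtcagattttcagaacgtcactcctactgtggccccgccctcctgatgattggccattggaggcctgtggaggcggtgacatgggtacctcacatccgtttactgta

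Across the family, edgeR called 1 gene higher in KO, Zbtb10, at 1 peak and in its summed counts, and DESeq2 called neither. The sum contains the called peak, so the call of the sum is not separate from that of the peak. Of the 85 tested peaks 1 was higher and 0 lower in KO at an adjusted p below 0.05 (edgeR quasi-likelihood test, Benjamini-Hochberg over all 34910 tested peaks). Of all tested peaks 3.85% were called in either direction, 2.94% higher and 0.911% lower. At an unadjusted edgeR p below 0.05 there were 3 higher and 8 lower (12.9%, against 13.6% of all peaks). DESeq2 called 0 of the 85 peaks (against 1.68% of all) and limma-voom 1. In 0 of the 85 peaks were the KO and WT libraries without overlap, against 3.96% of all peaks. The median log2 fold change of KO against WT was -0.01 (range -0.76 to 0.50), and over all tested peaks it was also -0.01 (range -2.38 to 4.51). Among promoter peaks 1 of 54 was called (1.85%, against 1.60% of all tested promoter peaks in either direction and 1.26% higher), and outside promoters 0 of 31 (against 5.80%), with 1 higher and 4 lower at an unadjusted edgeR p below 0.05 (16.1%, against 17.9% of all tested peaks outside promoters). The intervals were narrow enough to bound most changes: the 95% interval lay within 1.5-fold either way for 63 of the 85 peaks and within 2-fold for 83.

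**Figure D1:**
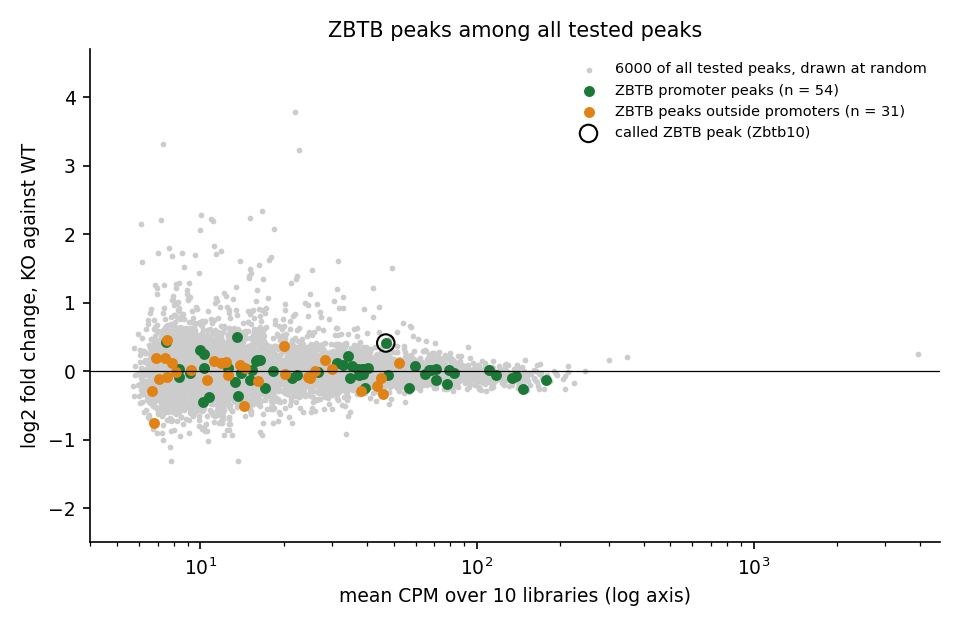
Log2 fold change of KO against WT (vertical axis) against mean level in CPM on a log axis (horizontal), for 6000 tested peaks drawn at random in grey and the 85 tested ZBTB peaks in colour. The ZBTB peaks lie between -0.76 and 0.50, with the called Zbtb10 peak at 0.41.

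When the counts of all peaks of a symbol were summed, 1 of 36 genes was higher and 0 were lower (2.78%, against 2.19% of the 12489 tested gene sums in either direction, 1.65% higher and 0.536% lower). The unadjusted edgeR p was below 0.05 in 1 higher sum, Zbtb10, and 3 lower sums, Zbtb7a, Zbtb9 and Zbtb48 (11.1%, against 12.5% of all). The limma-voom test called 1 sum, and DESeq2 called 0 (against 0.873% of all). The fold changes were positive in 18 genes and negative in 18, with a median log2 fold change of -0.00. The interval lay within 1.5-fold for 34 of the 36 genes, all but Zbtb10 and Zbtb32, and within 2-fold for all 36.

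**Figure D2:**
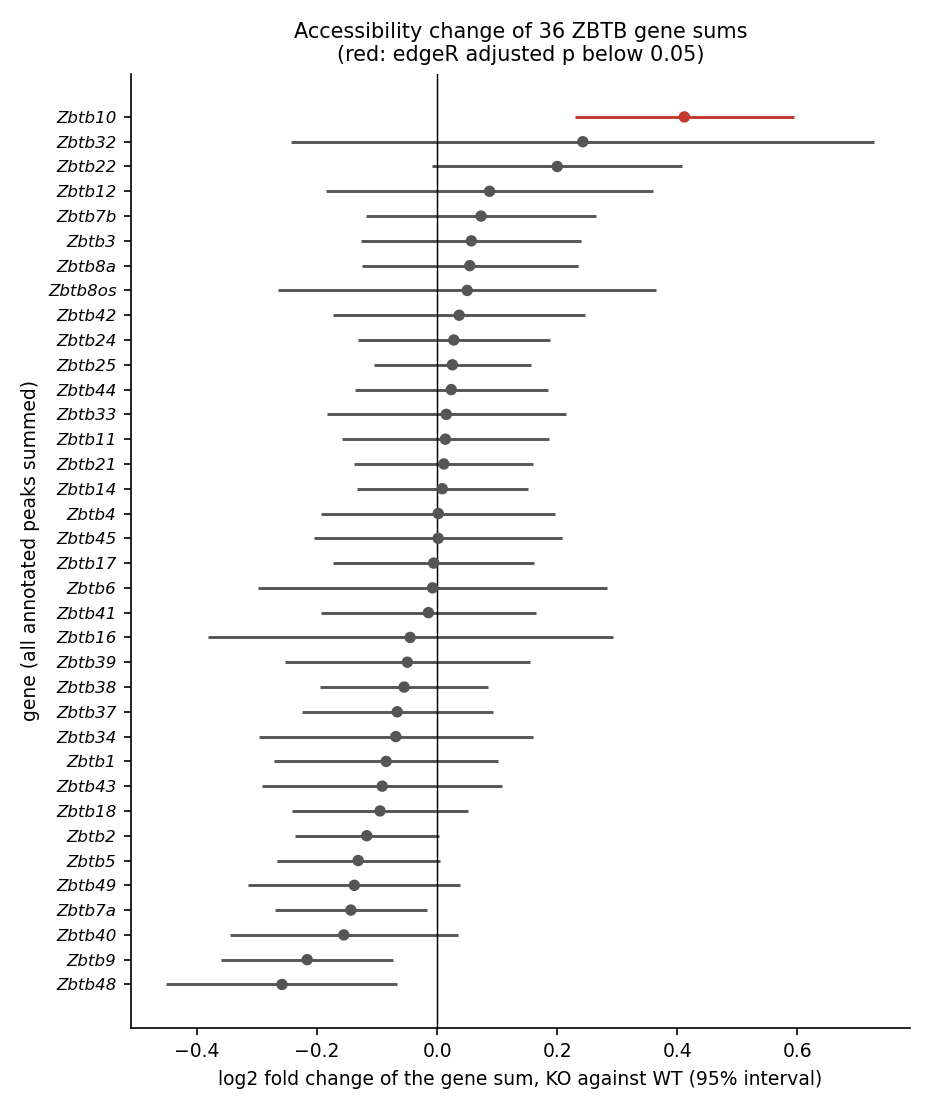
Log2 fold change of KO against WT for the summed counts of the 36 tested ZBTB genes, with 95% intervals (5 libraries per group). Zbtb10 stands at 0.41, and the intervals of the uncalled genes lie between 0.73 and 1.66 on the fold scale.

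Zbtb10 encodes a zinc finger repressor reported to bind variant telomeric repeats. Its called peak lies at chr3:9249731-9250121 (mm10), 446 bp before the start site at 9250567 on the plus strand. It held 60.8, 41.7, 53.3, 54.2 and 55.4 CPM in the KO libraries in order of their numbers, and 41.3, 47.5, 36.04, 35.0 and 42.6 CPM in the WT libraries in that order, as in all such series of values here. The KO libraries were the higher ones except Sample_2269_KO, which lay within the WT range. The means were 53.1 ± 6.98 and 40.5 ± 5.08 CPM (SD, n = 5 each), a 1.33-fold rise (95% interval 1.15 to 1.54; log2 0.41 ± 0.11 SE; edgeR adjusted p = 0.0114). The adjusted p was 0.0261 with limma-voom, 0.252 with DESeq2 and 0.0282 in edgeR with the library pairs within counting noise merged. The call was lost without Sample_2268_KO (edgeR adjusted p = 0.0613), Sample_2272_KO (0.0519) or Sample_2275_WT (0.0816).

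The neighbouring Zbtb10 promoter peaks leaned the same way without passing the test. The peak at chr3:9250301-9250489 held 15.996, 12.5, 16.7, 13.8 and 19.0 CPM in KO and 14.1, 8.83, 9.92, 12.2 and 12.8 CPM in WT, a ratio of 1.42 (interval 1.07 to 1.88; edgeR adjusted p = 0.203). The groups overlapped there between 12.5 and 14.1 CPM. The peak at chr3:9250909-9251025, beyond the start site, was at 8.34 ± 2.70 (KO) and 6.70 ± 2.13 CPM (WT), a ratio of 1.35 (edgeR adjusted p = 0.539). A distal intergenic peak 51688 bp before the start, too low to test, held 5.55 ± 3.71 CPM in KO and 5.78 ± 1.99 CPM in WT. Summed over the 4 peaks, Zbtb10 held 99.9, 67.1, 76.2, 85.9 and 92.4 CPM in KO and 73.6, 69.2, 60.99, 57.6 and 68.1 CPM in WT. Sample_2269_KO lay inside the WT range, and the others lay above it. The sum rose 1.33-fold (interval 1.17 to 1.51; edgeR adjusted p = 0.00396) and kept its call in each of the 10 fits that left out 1 library (adjusted p 0.000616 to 0.0374). The edgeR adjusted p was 0.00492 with the library pairs within counting noise merged. The call was lost with DESeq2 (adjusted p = 0.107) and with all libraries thinned to the smallest total (edgeR log2 fold change 0.35, adjusted p = 0.274). In bulk libraries, more cells with this promoter open and a wider opening per cell cannot be told apart. Within 500 kb of the Zbtb10 start, 21 tested peaks belonged to other genes or to none. edgeR called 0 of them (smallest adjusted p 0.161, log2 fold changes -0.62 to 0.64, 3 at an unadjusted p below 0.05), and DESeq2 and limma-voom called 0.

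**Figure D3:**
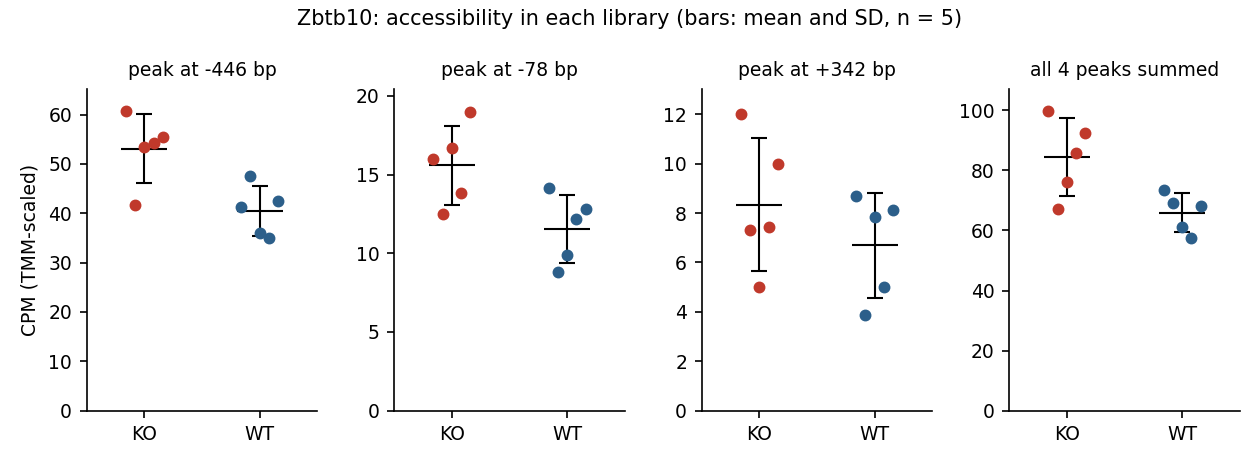
Level in CPM of the tested Zbtb10 promoter peaks and of the gene sum in each of the 10 libraries, with the group mean and SD. At the called peak the KO libraries range from 41.7 to 60.8 CPM and the WT libraries from 35.0 to 47.5 CPM.

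The genes that hold T cells in the CD4 lineage did not pass the test. Zbtb7b, the ThPOK gene that CD4 cells express and CD8 cells silence, held 63.3, 58.5, 54.2, 59.1 and 57.2 CPM over its 3 peaks in KO and 58.2, 59.5, 54.5, 57.6 and 50.2 CPM in WT. The 2 sets of libraries lay over each other, with a ratio of 1.052 (interval 0.921 to 1.201; edgeR adjusted p = 0.854). The Zbtb7b peak nearest the start site, at chr3:89393585-89393853, was at 39.2 ± 3.07 CPM in KO against 37.8 ± 5.03 in WT. Zbtb7a, the LRF gene whose product acts beside ThPOK, held 201, 197, 213, 215 and 221 CPM in KO and 229, 212, 241, 261 and 223 CPM in WT. In KO 2 libraries lay below every WT library and 3 within the WT range, and the ratio was 0.905 (interval 0.829 to 0.988; edgeR adjusted p = 0.296). Its strongest peak, at chr10:81137293-81138059, held 130 ± 12 CPM in KO and 139 ± 19.7 CPM in WT. The Zbtb7a peak nearest the start site, at chr10:81136979-81137128, held 14.96 ± 2.99 and 19.3 ± 3.20 CPM, a ratio of 0.840 (edgeR adjusted p = 0.609).

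Zbtb16, the PLZF gene of innate-like T cells, had a single peak, in an intron at chr9:48740204-48740505 and 95717 bp from the annotated start site. No promoter peak of Zbtb16 was among the members. The gene sum was 21.9, 22.4, 20.3, 20.8 and 16.9 CPM in KO and 21.97, 20.02, 23.2, 21.6 and 16.5 CPM in WT. The ratio was 0.969, and its interval of 0.767 to 1.225 leaves room for a change of that size in either direction.

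Other members with roles in lymphocytes differed by less than the test could call. Zbtb32, an activation-induced repressor that limits T cell responses, had the lowest sum of the tested genes, with 12.2, 11.7, 8.47, 14.8 and 8.68 CPM in KO and 9.89, 6.86, 8.64, 11.5 and 12.4 CPM in WT. Its single peak, at chr7:30600028-30600252, lies 1159 bp before the start site, and the interval of 0.845 to 1.66 was the widest of the tested ZBTB sums. Zbtb17, the Miz-1 gene whose product pairs with MYC, held 81.2, 90.5, 62.7, 83.2 and 86.8 CPM in KO and 86.8, 78.9, 77.7, 86.4 and 90.8 CPM in WT. Sample_2270_KO was low, and the ratio was 0.996 (interval 0.887 to 1.12). The Zbtb17 start-site peak, at chr4:141444465-141444955, covers most of the sequence printed above, whose first bases lie under an untested peak beside it, and held 32.4 ± 4.99 CPM in KO and 29.8 ± 5.81 CPM in WT. Its strongest peak, at chr4:141454502-141454930, held 42.1 ± 7.44 and 47.5 ± 1.395 CPM. Zbtb1, which lymphoid progenitors need, was at 62.2 ± 5.40 CPM in KO against 67.3 ± 6.09 in WT (ratio 0.943). Zbtb24, mutated in an inherited immunodeficiency with centromeric instability, was at 94.2 ± 8.29 and 89.0 ± 5.68 CPM (ratio 1.02). Zbtb25 was at 152 ± 4.45 and 150 ± 4.79 CPM (ratio 1.02), and Zbtb18, a repressor best known from neurons, at 157 ± 15.9 and 168 ± 16.1 CPM (ratio 0.936). The smallest edgeR adjusted p among these 4 was 0.654.

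**Figure D4:**
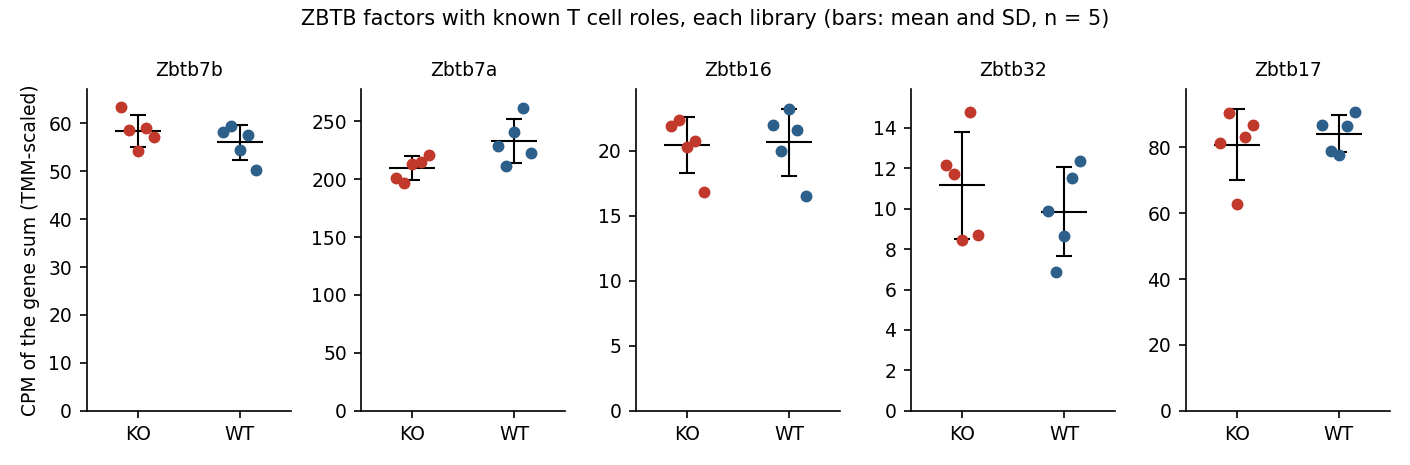
Summed level in CPM of ZBTB genes with known roles, one point per library, with the group mean and SD (5 KO and 5 WT libraries). The KO and WT points overlap in each gene shown, Zbtb7b between 54.2 and 59.5 CPM among them.

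The members that bind methylated CpG were not called, in their sums or at any tested peak. Zbtb33 (Kaiso) was at 56.4 ± 4.03 CPM in KO against 55.6 ± 5.43 in WT, Zbtb4 at 62.5 ± 10.1 and 63.0 ± 2.63 CPM, and Zbtb38 at 164 ± 13.2 and 169 ± 17.5 CPM, with ratios of 1.01, 1.00 and 0.963. Zbtb38 had 7 peaks, none at a promoter by the annotation, and its 5 tested peaks ran from -0.50 to 0.13 in log2 fold change. By RefSeq, however, its peak in the 5' untranslated region, at chr9:96719393-96720111, covers start-site sequences of Zbtb38. The intronic peak at chr9:96696301-96696741 held 43.2, 35.5, 28.3, 50.0 and 40.4 CPM in KO and 43.5, 54.1, 53.8, 48.6 and 58.8 CPM in WT. All KO libraries but Sample_2271_KO lay below every WT library there, with a ratio of 0.795 (interval 0.683 to 0.925; edgeR adjusted p = 0.0766). It was called lower without Sample_2271_KO (edgeR adjusted p = 0.0163) or Sample_2273_WT (0.0415). Those are the highest KO and the lowest WT library there, so leaving either out widens the gap. No other fit that left out 1 library called this peak. A second intronic peak, at chr9:96706006-96706218, was at 11.7 ± 2.24 and 17.0 ± 2.86 CPM (ratio 0.705, edgeR adjusted p = 0.167), whereas the peak in the 5' untranslated region held 55.6 ± 10.4 CPM in KO and 48.9 ± 4.97 CPM in WT (ratio 1.09, adjusted 0.690). A low intronic Zbtb38 peak at chr9:96719072-96719180, not tested with all libraries (7.50 ± 3.76 and 3.82 ± 2.03 CPM), was called higher without Sample_2270_KO (edgeR adjusted p = 0.033) or Sample_2275_WT (0.0258). Those are the lowest KO and the highest WT library at that peak, and no other fit that left out 1 library called it. Whether the Zbtb38 peaks differed from each other was not tested.

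The other telomere-binding member, Zbtb48 (TZAP), was lower on average in KO, at 57.9 ± 6.49 CPM against 69.8 ± 7.52 CPM in WT. The libraries held 67.4, 50.0, 59.3, 58.6 and 54.1 CPM in KO and 79.1, 71.5, 66.4, 59.1 and 72.9 CPM in WT, and overlapped between 59.1 and 67.4 CPM. The ratio was 0.836 (interval 0.731 to 0.955; edgeR adjusted p = 0.178). Zbtb10 and Zbtb48 thus stood on opposite sides of no change, but Zbtb48 was not called.

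Among members without a role group, Zbtb9 was the 1 gene of the 36 whose libraries did not overlap (2.78%, against 3.12% of all tested gene sums). It held 119, 108, 115, 112 and 115 CPM in KO and 136, 127, 147, 125 and 125 CPM in WT, so every KO library lay below every WT library. The ratio was 0.861 (interval 0.779 to 0.9501; edgeR adjusted p = 0.105), and the gene was not called. The Zbtb9 start-site peak, at chr17:26972895-26973450 and over the whole sequence printed above, held 73.2 ± 5.82 and 82.1 ± 4.79 CPM (ratio 0.880, edgeR adjusted p = 0.362). An intronic Zbtb9 peak at chr17:26980945-26981462 held 34.0 ± 4.08 and 42.1 ± 6.63 CPM (ratio 0.819, adjusted 0.223), and at both the libraries overlapped. Zbtb22, beside the major histocompatibility complex, had the highest ratio after Zbtb10 and Zbtb32, at 1.15 (interval 0.994 to 1.33), with 55.4 ± 4.55 CPM in KO against 47.6 ± 4.11 in WT. Zbtb5, whose start-site sequence lies wholly under its 1 peak, had a gene sum of 173 ± 18.7 and 190 ± 12.2 CPM (ratio 0.913, edgeR adjusted p = 0.421).

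Zbtb2, which binds unmethylated CpG-rich DNA, had the most peaks and the highest sum, 293 ± 7.40 CPM in KO and 321 ± 32.8 CPM in WT (ratio 0.922, edgeR adjusted p = 0.416). Its strongest peak, at chr10:4386656-4387374 and 734 bp past the start site, held 148, 105, 137, 138 and 133 CPM in KO and 184, 134, 128, 195 and 168 CPM in WT. Sample_2274_WT and Sample_2275_WT lay among the KO libraries and the other 3 above them, with a ratio of 0.837 (interval 0.730 to 0.959; edgeR adjusted p = 0.162). It was called lower without Sample_2275_WT (edgeR adjusted p = 0.0316). That is the lowest WT library there, so leaving it out widens the gap, and no other fit that left out 1 library called this peak. The 6 Zbtb2 peaks inside Akap12 had log2 fold changes from -0.13 to 0.19.

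**Figure D5:**
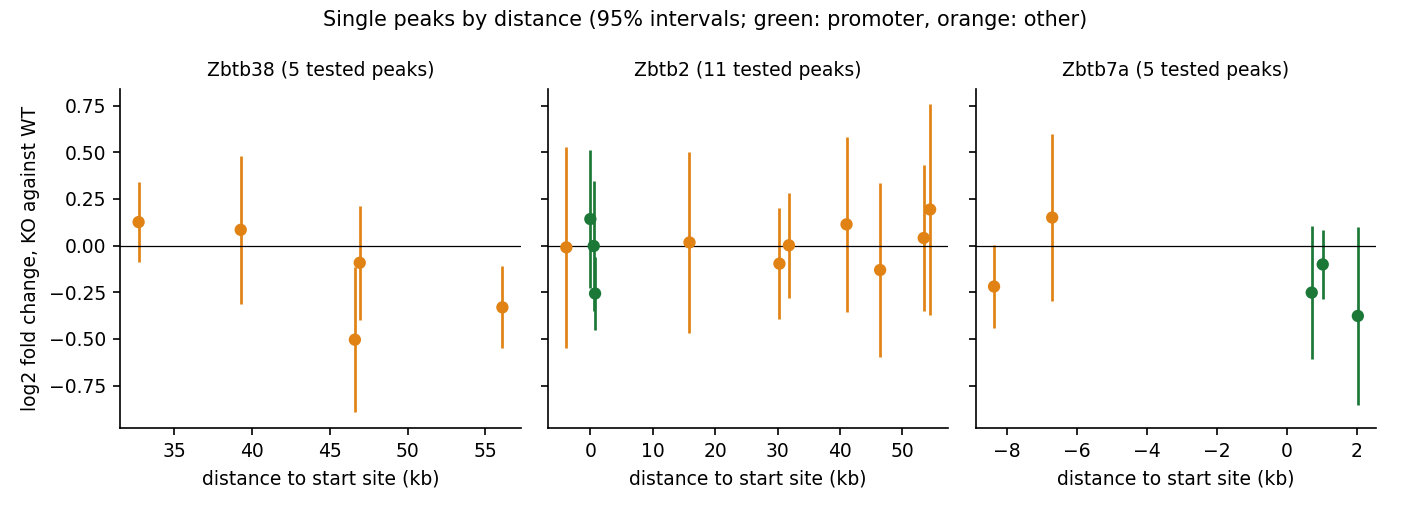
Log2 fold change of KO against WT with its 95% interval for each tested peak of Zbtb38 (5 peaks), Zbtb2 (11) and Zbtb7a (5), against the distance to the annotated start site in kb. Promoter peaks by the deposited annotation are in green and others in orange. The Zbtb38 peaks run from -0.50 to 0.13, those of Zbtb2 from -0.26 to 0.19 and those of Zbtb7a from -0.38 to 0.15, and none of them was called.

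A few single peaks of other members had an unadjusted p below 0.05 and were not called. A distal intergenic peak of Zbtb40 at chr4:137064771-137064990 was at 5.12 ± 2.99 CPM in KO against 8.50 ± 1.19 in WT (ratio 0.592, edgeR adjusted p = 0.195), the largest fold of the tested ZBTB peaks and among the lowest in counts. The Zbtb43 start-site peak held 35.8 ± 5.41 and 42.8 ± 6.05 CPM (ratio 0.841, edgeR adjusted p = 0.341). An intronic Zbtb25 peak at chr12:76361396-76361653 held 22.7 ± 4.93 and 17.5 ± 5.75 CPM (ratio 1.29, edgeR adjusted p = 0.316). The gene sums of the remaining 18 members, Zbtb3, Zbtb6, Zbtb8a, Zbtb8os, Zbtb11, Zbtb12, Zbtb14, Zbtb21, Zbtb34, Zbtb37, Zbtb39, Zbtb40, Zbtb41, Zbtb42, Zbtb43, Zbtb44, Zbtb45 and Zbtb49, had log2 fold changes from -0.16 to 0.09 and no unadjusted edgeR p below 0.105.

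Per length, the members differed far more from each other than KO from WT. The mean level of the tested peaks ran from 30.9 to 204 CPM per kb, with a median of 78.0. Taking each gene's highest tested promoter peak, Zbtb2 stood at 184 ± 22.2 CPM per kb in KO and 225 ± 41.1 in WT, Zbtb18 at 196 ± 21.4 and 207 ± 26.4, Zbtb5 at 180 ± 19.5 and 197 ± 14.4, and Zbtb7a at 169 ± 15.7 and 181 ± 25.7. Each of these 4 lay less than the larger of the SDs from the next in the order. At the low end stood Zbtb33 at 64.1 ± 3.9 and 60.2 ± 6.0 CPM per kb, Zbtb42 at 56.7 ± 14.8 and 59.3 ± 23.5, Zbtb8a at 52.6 ± 6.1 and 47.8 ± 4.6, and Zbtb32 at 48.6 ± 11.3 and 43.0 ± 10.0, where Zbtb8a and Zbtb32 overlapped in their spread. The Zbtb7b promoter, at 146 ± 11.4 and 140 ± 18.7 CPM per kb, lay between these ends.

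Genes that work with ZBTB proteins were read in the same gene fit, in which 2.19% of all tested sums were called (1.65% higher and 0.536% lower) and 12.5% had an unadjusted edgeR p below 0.05. Of 7 ZBTB proteins under other symbols, Bcl6, Patz1, Hic1 and Gzf1 among them, 0 were called by edgeR, DESeq2 or limma-voom, with 1 lower at an unadjusted edgeR p below 0.05 and a median log2 fold change of -0.04. The one was Hic1, at 64.7 ± 6.39 CPM in KO against 73.0 ± 7.10 in WT (edgeR adjusted p = 0.395). Of 12 tested corepressors and the ligase that BTB domains bind, 0 were called by any of these tools, 1 was lower at an unadjusted p below 0.05, and the median was -0.04. Bcorl1, a Polycomb-linked corepressor, was at 78.2 ± 9.65 CPM in KO against 94.9 ± 8.94 in WT (edgeR adjusted p = 0.138). Of 11 tested genes of the CD4 and CD8 lineage choice, 2 rose (Gata3 and Tox, edgeR adjusted p = 0.00696 and 0.000278) and 0 fell, with a median of -0.03. DESeq2 and limma-voom also called 2, and 3 were higher and 2 lower at an unadjusted edgeR p below 0.05. Of 9 tested genes of innate-like T cells, 1 rose (Il4, from 5.26 to 14.0 CPM, edgeR adjusted p = 0.000240) and 0 fell, with a median of 0.05. There DESeq2 and limma-voom also called 1, and 3 were higher and 0 lower at an unadjusted edgeR p below 0.05. The median over all tested gene sums was -0.01.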

How the data were processed

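ATAC-seq read counts for 10 libraries were used as deposited. The authors' table holds raw counts for 61581 peaks of 1 peak set, 10 of them without annotation, and their second deposited file gives positions, class, symbol and distance (mm10). All sample columns were used. The tools were, per the submitters' processing notes, Bowtie2 2.3.5, ChIPseeker 1.18.0, deepTools 3.3.0 and 3.5.2, DESeq2 1.22.2, MACS2 2.1.2, bcl2fastq 2.20, R 3.5.3, Trimmomatic 0.36, SAMtools 1.9 and Picard. Handling of duplicates, shift of reads for Tn5 and pooling before peak calling are not given in the sources used here. Duplicate removal would cap counts in dense peaks, and a shift would move few counts across peak borders.

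Peaks, and sums over all peaks of a symbol, were tested KO against WT with edgeR 4.0.16 in R 4.3.3 (TMM, filterByExpr by group, quasi-likelihood test, no covariate), with Benjamini-Hochberg adjustment over all 34910 peaks or 12489 sums tested and a threshold of 0.05. Alternatives were DESeq2 1.42.0, limma-voom (limma 3.58.1), other scalings and filters, thinning, and libraries left out or merged. CPM refer to TMM-scaled in-peak totals (for sums, the total of peaks with a symbol; 7971 peaks have none). Folds are edgeR's fitted values. SE and 95% intervals derive from the F statistic and are approximate. Overlap was judged on log2 CPM with a prior count of 2. The median tested ZBTB peak held 12 to 45 counts per library. The pipeline was tested on simulated data.

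Every member symbol is named by value or range. Values in each library are given for called members and for Zbtb7b, Zbtb16, Zbtb32, Zbtb7a and Zbtb17, with their nearest and strongest peaks. Zbtb9, Zbtb48, Zbtb2, Zbtb38, Zbtb5, Zbtb22, Zbtb40, Zbtb43 and Zbtb25 values were added after they were seen. Up to 4 genes are named per other list. Members, lists and this rule were chosen with earlier results of these data known. Promoter sequences are RefSeq's.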

Additional observations from a re-analysis of the deposited data

Results flagged for a closer look

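In 3 of 108 checked groups of 5 libraries (the KO and the WT values of the 36 tested ZBTB gene sums and of 18 ZBTB peaks with a small p or a named gene), 1 library stood far from the others, with a gap to its nearest neighbour above 0.71 of the group's range. Chance flags about 1 in 20 such groups. The Zbtb25 sum was 144.8 CPM in Sample_2269_KO, and 152.6 to 155.8 CPM in the other KO libraries. The Zbtb43 sum was 55.45 CPM in Sample_2276_WT, and 68.01 to 72.51 CPM in the other WT libraries. The Zbtb5 sum was 211.0 CPM also in Sample_2276_WT, and 181.9 to 187.1 CPM in the others.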

How the results depend on the processing

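No paired analysis was possible because the library numbers differ between the groups and pair no library of one with one of the other. With DESeq2, 0 ZBTB peaks and 0 gene sums were higher, and it called 587 of all peaks and 109 of all sums against 1345 and 273 with edgeR. Leaving out 1 library gave 0 to 2 peaks higher and 0 to 1 lower among 87 to 90 tested ZBTB peaks. In those fits edgeR called 1096 to 1385 of all peaks, of which 35483 to 36809 were tested. Thinned to the smallest total in a single random draw, edgeR called 0 ZBTB sums higher (Zbtb10 at 0.35, adjusted p = 0.274) and 79 sums in all. The Zbtb10 peak stayed called there (log2 fold change 0.59, edgeR adjusted p = 0.038), with 272 of 18112 tested peaks called in all. With peaks outside promoters alone, 0 sums were higher (449 of all sums called), and with promoter peaks alone Zbtb10 stayed called (70 called in all). Neither fit is a separate check of Zbtb10. Its only peak outside promoters was too low to test, and all its tested peaks are promoter peaks. A mean count of at least 20 left 805 of all peaks called. The following uncalled log2 fold changes near 0 changed sign. With thinning they were -0.02112 (Zbtb7b peak at 89393585), 0.02619 (Zbtb16 peak), 0.0307 (Zbtb16 sum), -0.06188 (Zbtb4) and -0.02497 (Zbtb7b sum). Without the 3 libraries of lowest total they were -0.002389 (Zbtb7b peak), 0.02483 (Zbtb17), -0.02225 (Zbtb24) and -0.006504 (Zbtb4). With promoter peaks alone they were 0.121 (Zbtb17) and -0.0411 (Zbtb25), and with peaks outside promoters -0.1132 (Zbtb33) and -0.0931 (Zbtb7b). Zbtb4 was -0.0002326 with DESeq2, -0.01022 with limma-voom and -0.002576 without a count filter. Leaving out 1 library gave -0.03789 to 0.08489 (Zbtb7b peak), -0.1269 to 0.04918 (Zbtb16 peak), -0.1136 to 0.05023 (Zbtb16), -0.03836 to 0.0302 (Zbtb17), -0.00546 to 0.08554 (Zbtb24), -0.028 to 0.06748 (Zbtb33) and -0.06659 to 0.09483 (Zbtb4). The cause of these changes was not tested. The other 18 sums changed sign in 47 of 349 values and were called in 0. Low counts limit the untested peaks and the distal ones most.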
